A study of Mus musculus with 16 samples.

Results

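The cytosolic ribosomal protein genes of the mouse were examined as a set of 80 protein-coding genes, out of 22232 protein-coding gene names with an annotated start. They were chosen by symbol from the annotation of the mm9 genome, with earlier results of these data known. The rule took Rpl or Rps followed by digits and by nothing, a, x or l, together with Rplp0, Rplp1, Rplp2 and Rpsa. Of these, 48 encode proteins of the large ribosomal subunit and 32 encode proteins of the small subunit. They lie on 19 chromosomes, and their median span is 3306 bp.

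Each ribosome carries 1 copy of most of these proteins beside the ribosomal RNAs, and the genes are transcribed in every growing cell, mostly from promoters rich in CpG dinucleotides. They therefore serve as an active housekeeping contrast for the Polycomb marks. Polycomb repressive complex PRC1 attaches a single ubiquitin to a lysine of histone H2A (H2AK119ub1), and PRC2 trimethylates a lysine of histone H3 (H3K27me3). Both marks collect at CpG-rich promoters of silent developmental regulators such as the Hox genes. PCGF5 is the Polycomb group RING finger subunit that defines 1 variant form of PRC1.

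The study made 16 ChIP-seq libraries, 1 for each group, from mouse embryonic stem cells (ES) and from neural progenitor cells (NPC) collected on day 6 of differentiation in suspension. Peak lists of 10 libraries were used, and the 6 input libraries were not analysed here. H2AK119ub1 and H3K27me3 were each profiled in ES and NPC of wild type and of shPCGF5 genotype. PCGF5 itself was profiled through a Flag tag in ES and NPC of a knock-in line. The shPCGF5 cells carry a short hairpin RNA against PCGF5 and were picked as drug-resistant colonies, so effects of the colony and of the hairpin cannot be told apart. The knock-in line derives from 46C cells, which carry GFP at Sox1. The paper's methods describe the hairpin lines as made in 46C cells too. ES were kept with LIF and 2 kinase inhibitors on inactivated fibroblast feeders, from which some chromatin may remain.

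The histone lists held 3845 to 14759 peaks, and the Flag-PCGF5 lists held 653 peaks in ES and 12013 in NPC. The lists give no read totals, so depth is unknown. With 1 library for each group there was no replicate error and no test between groups. Shares are given with 95% Wilson intervals, which cover counting error over genes only. H3K27me3 peaks lay at all 6 listed mesoderm and endoderm regulators in wild type ES and wild type NPC. Of 6 pluripotency genes, H3K27me3 lay at 1 in wild type ES (Esrrb) and at 4 in wild type NPC. Of 5 listed neural precursor genes, 4 were annotated. H3K27me3 lay at 3 of these in wild type ES (Pax6, Pou3f2 and Cdh2) and still at 3 in wild type NPC (Nes, Pax6 and Pou3f2). At 4 fibroblast markers, H3K27me3 lay at 2 in wild type ES, 4 in shPCGF5 ES, 3 in wild type NPC and 3 in shPCGF5 NPC. Over all genes the H3K27me3 shares were 13.4%, 12.9%, 15.7% and 15.4% in the same order.

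A gene was counted as marked when the centre of a peak lay within 2500 bp of any annotated start of a protein-coding transcript. In wild type cells no ribosomal protein gene was marked by either histone modification. H2AK119ub1 marked 0 of 80 members in wild type ES (interval 0 to 4.58%), against 6.69% of all genes. In wild type NPC it again marked 0 of 80, against 4.98% of all genes. H3K27me3 marked 0 of 80 members in wild type ES, against 13.4% of all genes, and 0 of 80 in wild type NPC, against 15.7%. Over the 4 wild type histone lists, 20.6% of all genes had a peak in at least 1 list, and the share was 26.1% among 9849 CpG-rich genes. The upper bound of 4.58% for ribosomal protein genes lay below both shares.

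Most of these promoters have the base composition of the promoters at which both marks are found elsewhere. A promoter was called CpG-rich when the 500 bases on each side of the start held over 50% G and C with an observed to expected CpG ratio of at least 0.6. By this rule 69 of the 80 members were CpG-rich (86.2%), against 44.3% of all genes. The median observed to expected CpG ratio was 0.806 for members and 0.550 for all genes. The Hox genes, which encode the body-axis homeodomain factors, stood at the other end. In wild type ES, 31 of 39 Hox genes had an H2AK119ub1 peak, and 34 of 39 had an H3K27me3 peak.

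**Figure D1:**
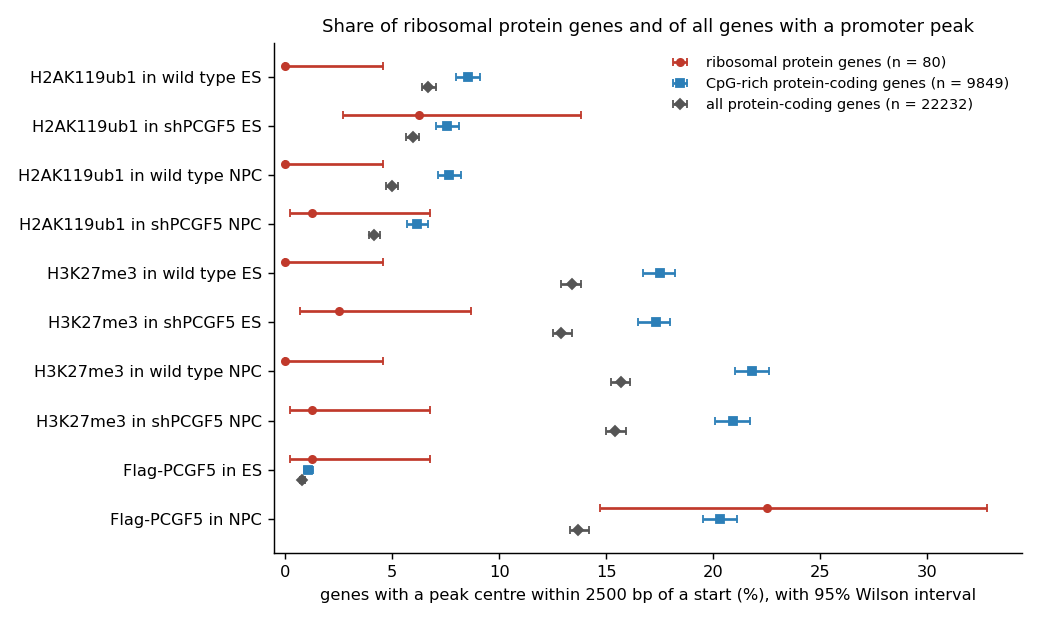
Percentage of genes with a peak centre within 2500 bp of a start (x axis) in each of the 10 peak lists (y axis) for ribosomal protein genes (circles), CpG-rich genes (squares) and all genes (diamonds), with 95% Wilson intervals. The ribosomal protein genes sit at 0 in the 4 wild type histone lists and reach 22.5% in the Flag-PCGF5 list of NPC.

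The nearest peaks of the wild type lists mostly lay well away from the members. The median distance from a member's start to the closest H3K27me3 peak was 121 kb in wild type ES, against 77.8 kb for CpG-rich genes and 103 kb for all genes. In wild type NPC it was 106 kb, against 68.9 kb and 101 kb. For H2AK119ub1 the median of the members was 168 kb in wild type ES, against 138 kb for CpG-rich genes and 184 kb for all genes. In wild type NPC it was 328 kb, against 283 kb and 385 kb. The member closest to the limit without reaching it was Rpl28, a large subunit protein gene, with an H3K27me3 peak centred 2.65 kb from its start in wild type NPC.

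The members include tissue-restricted forms. Rpl3l is a striated muscle form of the large subunit protein Rpl3, and Rpl10l and Rpl39l are forms known from the testis. Each of these 3 genes was without a promoter peak in all 10 lists. The same held for 14714 of 22232 genes, so the 3 genes do not stand out. Rpl3l and Rpl39l are among the 11 members that were not CpG-rich.

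Counts for other genes of protein synthesis stand against the 6.69% (H2AK119ub1) and 13.4% (H3K27me3) of all genes in wild type ES. Of 76 mitochondrial ribosomal protein genes, which encode the proteins of the organelle's own ribosome, 0 had an H2AK119ub1 peak and 1 had an H3K27me3 peak in wild type ES. Of 27 RNA polymerase subunit genes, 0 had a peak of either mark in wild type ES (interval 0 to 12.5%). The translation factor genes were taken by symbol, Eif or Eef followed by a digit, so the list can hold genes of other function. Of these 66 genes, 2 had an H2AK119ub1 peak (interval 0.835 to 10.4%) and 4 had an H3K27me3 peak (interval 2.38 to 14.6%) in wild type ES. Both intervals hold the share of all genes. In wild type NPC, H3K27me3 lay at 7 of the 66 (10.6%, interval 5.23 to 20.3%), against 15.7% of all genes. The translation factor genes with H3K27me3 in wild type ES included Eif4e3, a divergent relative of the cap-binding factor, at a fold enrichment of 5.09. Of 22 ribosome assembly factor genes, Rrs1, needed for assembly of the large subunit, was the gene with a peak of each mark in wild type ES. Its fold enrichments there were 3.35 for H2AK119ub1 and 5.96 for H3K27me3.

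In shPCGF5 cells, 8 of the 80 ribosomal protein genes had a histone peak in at least 1 of 4 lists (10.0%, interval 5.15 to 18.5%), against 19.7% of all genes. H2AK119ub1 peaks lay at 5 members in shPCGF5 ES (6.25%, interval 2.70 to 13.8%), against 5.96% of all genes and 7.57% of CpG-rich genes. Rpl38 was the 1 member with H2AK119ub1 in shPCGF5 NPC (1.25%, interval 0.221 to 6.75%), against 4.17% of all genes. H3K27me3 peaks lay at 2 members in shPCGF5 ES (2.5%, interval 0.688 to 8.66%), against 12.9% of all genes. The last was Rpl13a, with H3K27me3 in shPCGF5 NPC, where 15.4% of all genes had a peak.

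Since the wild type histone lists marked no member, all 9 of these gene and list pairs were bound to be absent from them. Among all genes, a peak in the shPCGF5 list without one in the wild type list was found for 2.69% (H2AK119ub1, ES), 1.65% (H2AK119ub1, NPC), 3.43% (H3K27me3, ES) and 3.54% (H3K27me3, NPC). For H2AK119ub1 in ES the share of members was 6.25%, and its interval from 2.70% held the 2.83% of CpG-rich genes. With a window of 1000 bp this share was 1.25%. The other 3 shares were below the background. The peak calls carry no spike-in scaling, and the difference between genotypes cannot be told apart from a difference between the single libraries.

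The H2AK119ub1 peaks of shPCGF5 ES fell on Rplp0, Rplp1, Rps15, Rpsa and Rpl8. Rplp0 forms the base of the ribosomal stalk, which recruits elongation factors, and Rplp1 is an acidic protein of the same stalk. Rps15 lies in the head of the small subunit near the decoding site. Rpsa is a small subunit protein that is also known as a laminin receptor. Rpl8 lies close to the peptidyl transferase centre.

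Their fold enrichments over the local background, as the peak caller gave them, were 6.91 for Rplp0, 6.59 for Rps15, 6.37 for Rplp1, 5.01 for Rpsa and 3.79 for Rpl8. The median over all promoter peaks of the list was 4.01. The scores of the first 4 genes stood at the 91.2 to 96.0 percentiles of their list, and that of Rpl8 at the 30.8 percentile.

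None of these peaks lay over the start itself. All 5 were centred downstream of the start, by 470 bp at Rpl8, 1114 bp at Rps15, 1132 bp at Rplp1, 1287 bp at Rplp0 and 2456 bp at Rpsa. Over all 1324 genes marked in this list, 805 had the closest peak centred downstream. Their median distance was 841 bp, with 31.3% within 500 bp, so a place away from the start was common in the list. The 5 member peaks were 145 to 253 bp wide, with a median of 172 bp, against 250 bp for all promoter peaks of the list. At 4 of the 5 genes the whole peak lay inside a single exon. Over all promoter peaks of this list, 15.9% had at least 90% of their bases in exons. The peak at Rpsa lay just inside the 2500 bp limit. Rpl14, a large subunit protein gene, had an H2AK119ub1 peak just outside it, 2668 bp from the start, which was 168 bp wide with a fold enrichment of 6.40 and lay wholly in an exon.

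Both exons below are shown because they hold the member peaks with the highest fold enrichment in the H2AK119ub1 list of shPCGF5 ES. Capitals mark the bases of the H2AK119ub1 peak of shPCGF5 ES, the lower-case letters next to them are the rest of the coding exon, and the first and last 10 bases are intron. The Rplp0 exon is 264 bp long and the peak covers 167 bp of it, leaving 41 bp before and 56 bp after. The Rps15 exon is 235 bp long and the peak covers 172 bp, leaving 32 bp before and 31 bp after. Positions are on mm9, plus strand, chr5:116010740-116011023 for Rplp0 and chr10:79756377-79756631 for Rps15.
Rplp0: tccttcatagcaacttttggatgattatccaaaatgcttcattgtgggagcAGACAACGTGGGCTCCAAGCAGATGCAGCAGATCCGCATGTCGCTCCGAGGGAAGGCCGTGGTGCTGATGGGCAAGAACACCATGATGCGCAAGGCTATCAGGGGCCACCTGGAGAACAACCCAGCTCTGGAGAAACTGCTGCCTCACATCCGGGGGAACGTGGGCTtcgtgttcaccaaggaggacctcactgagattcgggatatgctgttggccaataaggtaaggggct
Rps15: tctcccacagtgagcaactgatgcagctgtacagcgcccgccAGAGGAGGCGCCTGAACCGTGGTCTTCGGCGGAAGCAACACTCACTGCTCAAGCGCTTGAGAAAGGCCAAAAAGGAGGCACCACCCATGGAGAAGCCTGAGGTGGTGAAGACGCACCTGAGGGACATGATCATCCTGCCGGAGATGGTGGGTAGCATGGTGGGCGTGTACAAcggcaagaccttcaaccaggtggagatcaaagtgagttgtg

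The H3K27me3 peaks of shPCGF5 ES lay on Rpl8 and Rps2. Rps2 is a small subunit protein at the entry of the mRNA channel. At Rpl8 the H3K27me3 peak was 770 bp wide, was centred 615 bp downstream of the start and had a fold enrichment of 3.60, and 66.1% of its bases were exonic. Rpl8 was the 1 member marked by both modifications. At Rps2 the peak was 211 bp wide, was centred 914 bp downstream and had a fold enrichment of 3.42, and all of its bases lay in 1 coding exon of 334 bp.

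The NPC peaks differed in position. Rpl38, known from mice in which its loss lowers translation of Hox mRNAs, had an H2AK119ub1 peak of 165 bp centred 1890 bp upstream of its start, outside any exon, with a fold enrichment of 4.57. Rpl13a, which also has a role in translational silencing outside the ribosome, had an H3K27me3 peak of 313 bp centred 822 bp downstream of its start with a fold enrichment of 4.69. No base of it was exonic, and the start nearest to it was that of the neighbouring cytokine gene Flt3l.

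**Figure D2:**
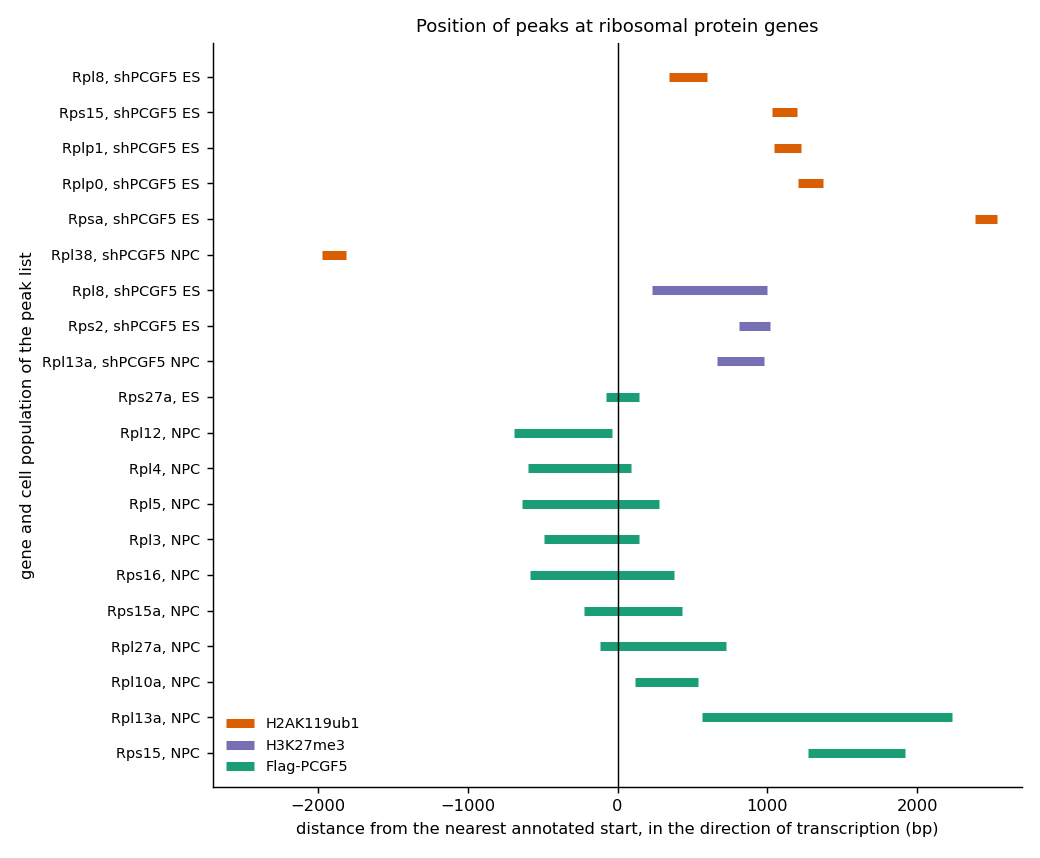
Peaks counted for ribosomal protein genes, with the 10 of highest fold enrichment for Flag-PCGF5 in NPC, drawn to scale by distance from the nearest annotated start in the direction of transcription (x axis, bp), with 1 line for each gene and list. The H2AK119ub1 and H3K27me3 peaks of shPCGF5 ES lie 470 to 2456 bp downstream of the start, whereas most Flag-PCGF5 peaks of NPC lie around it.

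The annotation also names 161 copies of ribosomal protein genes by adding -ps to the parent's symbol, 55 of protein-coding type and 106 of pseudogene type. Such copies mostly arose by insertion of reverse-transcribed mRNA and are silent as a rule. They repeat the exon sequence of the parent without its introns, so reads from a copy and from its parent's exons can be assigned to either. In shPCGF5 ES, an H2AK119ub1 peak lay over 19 copies (11.8%, interval 7.69 to 17.7%), against 1.36% of 5209 annotated pseudogenes and 8.84% of protein-coding loci. An H3K27me3 peak lay over 15 copies (9.32%, interval 5.73 to 14.8%), against 2.27% of pseudogenes and 14.7% of protein-coding loci. Among the 106 copies of pseudogene type alone, 11 had a peak in each list (10.4%, interval 5.89 to 17.6%). Those of protein-coding type had 8 of 55 for H2AK119ub1 and 4 of 55 for H3K27me3. The median span was 483 bp for these 55 copies and 15420 bp for all protein-coding loci. In each of the other 8 lists the count was 0 of 161, with an upper bound of 2.33%. Pseudogenes as a whole were at 0.710% (wild type ES), 0.173% (wild type NPC) and 0.307% (shPCGF5 NPC) for H2AK119ub1, and at 1.46%, 1.57% and 1.44% in the same order for H3K27me3. For Flag-PCGF5 they were at 0.0960% in ES and 0.422% in NPC. All of these shares lie under the bound of 2.33%. By the promoter rule of 2500 bp, 11 (H2AK119ub1) and 12 (H3K27me3) of the 106 copies of pseudogene type had a peak in shPCGF5 ES. By that rule the other lists were not all at 0. The counts were 1 and 2 in wild type ES, 0 and 3 in wild type NPC, and 0 and 2 in shPCGF5 NPC. For Flag-PCGF5 they were 0 in ES and 2 in NPC.

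Of the peaks over copies, 18 of 19 for H2AK119ub1 and 11 of 15 for H3K27me3 lay wholly inside the copy. There were 6 copies with a peak in both lists, a count without a background, since it was not made over all pseudogenes. The highest H2AK119ub1 fold enrichment among copies was 12.4 at Rps27a-ps2, and Rps27a-ps2 had 4.18 for H3K27me3. The highest H3K27me3 value was 13.8 at Rps2-ps10, which had 4.24 for H2AK119ub1, and its parent Rps2 had an H3K27me3 peak too. Rps26-ps1 had a fold enrichment of 10.6 for H2AK119ub1. Rpsa-ps10 was marked in both lists, at 3.37 for H2AK119ub1 and 3.10 for H3K27me3, beside the peak over its parent Rpsa. By the same count of any base over the annotated span, 6 ribosomal protein genes had an H2AK119ub1 peak in shPCGF5 ES (7.50%), against 8.84% of protein-coding loci. Without the peaks that had at least 90% of their bases in exons (chosen after seeing the data), H2AK119ub1 in shPCGF5 ES marked 1 of 80 members (1.25%), against 5.16% of all genes, and H3K27me3 marked 1 of 80, against 11.2%. The part of reads shared with copies was not tested.

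**Figure D3:**
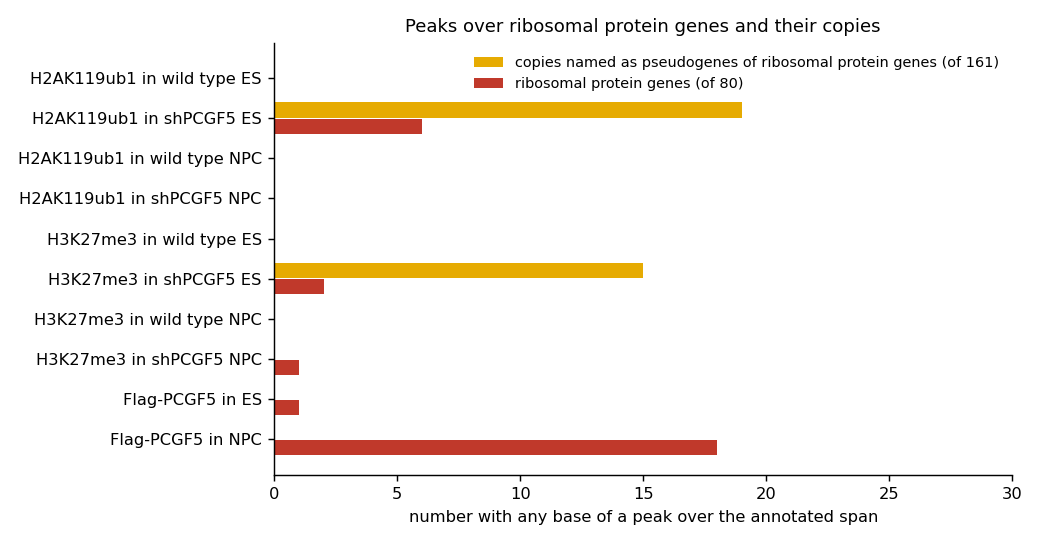
Number of loci with any base of a peak over the annotated span (x axis) in each list (y axis), for 161 annotated copies of ribosomal protein genes and for the 80 genes themselves. By this count over the span, copies have peaks in both shPCGF5 ES lists, 19 and 15, and in no other list.

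Flag-PCGF5 peaks of NPC lay at 18 of the 80 ribosomal protein genes (22.5%, interval 14.7 to 32.8%), against 13.7% of all genes. The share of all CpG-rich genes was 20.3%, and of the 69 CpG-rich members 14 had a peak, which is 20.3% as well (interval 12.5 to 31.2%). Large subunit genes had 12 of 48 and small subunit genes 6 of 32. Other lists of protein synthesis genes gave 19.7% for translation factors, 22.7% for ribosome assembly factors, 14.8% for RNA polymerase subunits and 13.2% for mitochondrial ribosomal proteins, with 66, 22, 27 and 76 genes.

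In ES the Flag-PCGF5 list held a peak at 1 member, Rps27a (1.25%, interval 0.221 to 6.75%), against 0.787% of all genes. Rps27a encodes ubiquitin fused to a small subunit protein. Its peak was 219 bp wide, was centred 36 bp downstream of the start and had a fold enrichment of 10.4, and all of its bases were exonic. No member was in both Flag-PCGF5 lists. Since the ES list held 653 peaks and the NPC list 12013, the counts of the 2 lists are not on 1 scale.

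The NPC peaks at ribosomal protein genes were weak. The highest fold enrichment was 3.30 at Rpl3, whose protein reaches into the peptidyl transferase centre. Rpl5, which joins the 5S rRNA and Rpl11 in a particle that can bind MDM2, had 2.75. Rpl12 of the stalk base had 2.54, and the small subunit gene Rps16 had 2.51. Among the next, Rpl27a had 2.49, Rpl10a 2.41, Rpl13a 2.31, Rps15a 2.27, Rps15 2.21 and Rpl4 2.12, so that the 10 highest values ran from 2.12 to 3.30. Rps19, the gene most often mutated in Diamond-Blackfan anaemia, had 1.96. The lowest values were 1.76 at Rpl18 and 1.70 at Rpl6.

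The median over the 18 members was 2.16, close to 2.18 for all promoter peaks of the list, and 8 of the 18 peaks were in the upper 50% of the list by score. Their median width was 671 bp, against 609 bp. Of the members, Rps21 alone lay in 1 of 7 windows of 5 Mb with many peaks of high fold, and it had no peak. None of the 18 was among the 653 highest-scoring peaks of the NPC list, the number that the ES list holds. Those peaks marked 0.724% of all genes, which the interval of 0 of 80 members, 0 to 4.58%, holds.

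Unlike the histone peaks of shPCGF5 ES at members, most of these peaks lay around the start. The median distance from the start was 238 bp, against 253 bp for all marked genes, and 16 of 18 were centred within 500 bp (88.9%), against 68.7%. Over all genes marked in the shPCGF5 ES lists, the share within 500 bp was 31.3% for H2AK119ub1 and 57.8% for H3K27me3. Of the 18 members, 9 had the peak centred upstream and 9 downstream. The 2 farthest were Rpl13a at 1397 bp and Rps15 at 1594 bp. The next closest members, which the limit left out, were Rpl36 at 3621 bp, Rps10 at 3693 bp and Rps24 at 3771 bp. Rps10 and Rpl11 had peaks over the gene beyond the limit, with fold enrichments of 2.24 and 2.22, and that of Rpl11 was centred 21477 bp from the annotated start. At Rpl12, Rpl13a, Rpl18 and Rpl4 the start closest to the peak belonged to a neighbouring gene (Lrsam1, Flt3l, Sphk2 and Zwilch respectively).

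**Figure D4:**
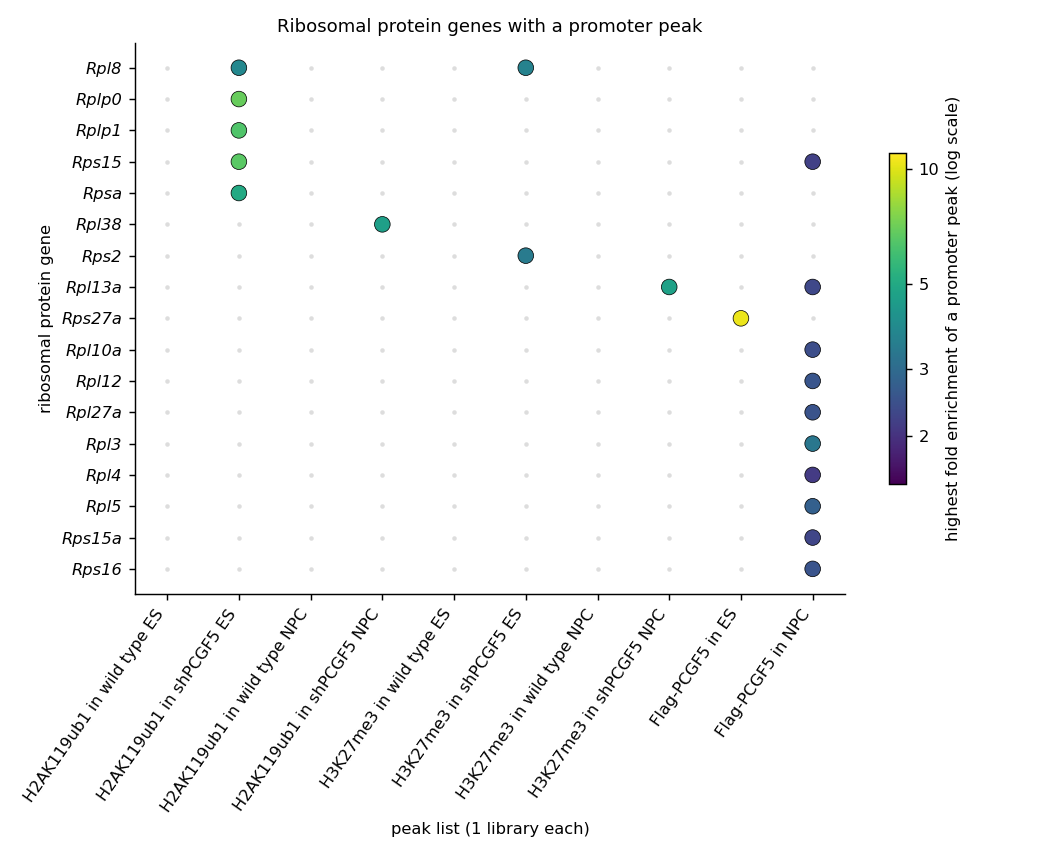
Ribosomal protein genes with a promoter peak in a histone list or in the ES Flag-PCGF5 list, and the 10 with the highest fold enrichment in the NPC Flag-PCGF5 list (y axis), against the 10 lists (x axis), with the colour of each dot giving the highest fold enrichment on a log scale and grey points marking no peak. The 4 wild type histone lists are empty, and the 10 dots of Flag-PCGF5 in NPC lie between 2.12 and 3.30.

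The promoters of Rpl3, Rpl5 and Rpl12 are shown as those with the highest Flag-PCGF5 fold enrichment in NPC, and that of Rpl8 as the member with both histone marks in shPCGF5 ES. Each run holds 180 bases before and 20 bases after the annotated start on mm9. Capitals mark GGGCGG, the core of the Sp1 site, and CCGGAA, the core of many ETS factor sites, on either strand. The windows are chr15:79913817-79914016 (minus strand) for Rpl3, chr5:108329341-108329540 (plus) for Rpl5, chr2:32816899-32817098 (plus) for Rpl12 and chr15:76734321-76734520 (plus) for Rpl8. The Rpl5 window held neither motif.
Rpl3: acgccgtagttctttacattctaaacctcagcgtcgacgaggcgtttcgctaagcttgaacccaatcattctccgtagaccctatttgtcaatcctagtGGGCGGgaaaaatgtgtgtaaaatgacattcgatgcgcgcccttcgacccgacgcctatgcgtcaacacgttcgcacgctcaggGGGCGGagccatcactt
Rpl5: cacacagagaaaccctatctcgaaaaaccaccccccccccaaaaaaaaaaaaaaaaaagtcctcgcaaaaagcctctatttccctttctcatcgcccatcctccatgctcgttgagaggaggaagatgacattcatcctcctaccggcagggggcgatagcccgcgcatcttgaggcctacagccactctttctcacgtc
Rpl12: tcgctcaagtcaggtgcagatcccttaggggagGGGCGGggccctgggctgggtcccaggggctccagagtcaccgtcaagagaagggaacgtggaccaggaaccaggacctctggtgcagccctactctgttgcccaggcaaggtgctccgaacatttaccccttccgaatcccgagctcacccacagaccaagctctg
Rpl8: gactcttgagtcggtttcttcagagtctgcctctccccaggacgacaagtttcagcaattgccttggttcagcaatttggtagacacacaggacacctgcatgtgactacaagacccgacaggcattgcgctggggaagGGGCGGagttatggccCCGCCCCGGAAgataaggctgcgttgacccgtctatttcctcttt

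Motifs were counted on either strand from 250 bases before to 50 after the start. CCGGAA was in 42.5% of member promoters, against 17.7% of all promoters, and GGGCGG was in 47.5%, against 44.0%. In Rpl8 a CCGGAA and a GGGCGG on the opposite strand overlap. ATGGCGG, part of the YY1 site, was in 15.0% of member promoters, against 5.08%. CACGTG, the E-box bound by Myc, was in 11.2%, against 7.71%, and TATAAA was in 11.2%, against 13.4%.

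Between members with and without a Flag-PCGF5 peak in NPC, CCGGAA was in 38.9% of 18 and 43.5% of 62, and GGGCGG was in 55.6% and 45.2%. CACGTG was in 0 of 18 and in 9 of 62. Among all 3052 genes with such a peak and a usable window, CCGGAA was in 22.9%, GGGCGG in 62.5% and CACGTG in 9.08%. Differences between the 18 and the 62 members were not tested. A C followed by 4 pyrimidines, the start of the terminal oligopyrimidine tract of ribosomal protein mRNAs, stood at the annotated start of 3 members (3.75%), against 1.98% of all genes. Within 10 bases before to 15 after the start such a run was in 40.0%, against 30.5%. The annotated starts may not be the starts used in these cells.

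Since no member had either mark in wild type NPC, the overlap with Flag-PCGF5 was 0 for that reason alone. Of the 18 members with a Flag-PCGF5 peak in NPC, 0 had an H2AK119ub1 peak and 0 had an H3K27me3 peak in wild type NPC, with an upper bound of 17.6% for each. Among all 3055 genes with a Flag-PCGF5 peak in NPC, 8.22% had H2AK119ub1, which lies under that bound, and 25.3% had H3K27me3. Rps15 and Rpl13a were the 2 members with both a Flag-PCGF5 peak in NPC and a histone peak in shPCGF5 cells. The histone peak was in ES for Rps15 and in NPC for Rpl13a. This overlap was not counted over all genes, so it has no background and cannot be called high or low. The Flag-PCGF5 libraries came from the knock-in line, and the histone libraries did not.

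The Flag-PCGF5 peaks were also counted by chromosome, and chromosome 7 is singled out after its count was seen. There, 8 of 14 members had a peak in NPC (57.1%, interval 32.6 to 78.6%), against 18.2% of all genes and 33.0% of CpG-rich genes, and the interval holds the share of CpG-rich genes. No test of the spread over chromosomes was made. On the other chromosomes 10 of 66 members had one (15.2%, interval 8.44 to 25.7%), against 13.3% of all genes and 19.4% of CpG-rich genes.

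**Figure D5:**
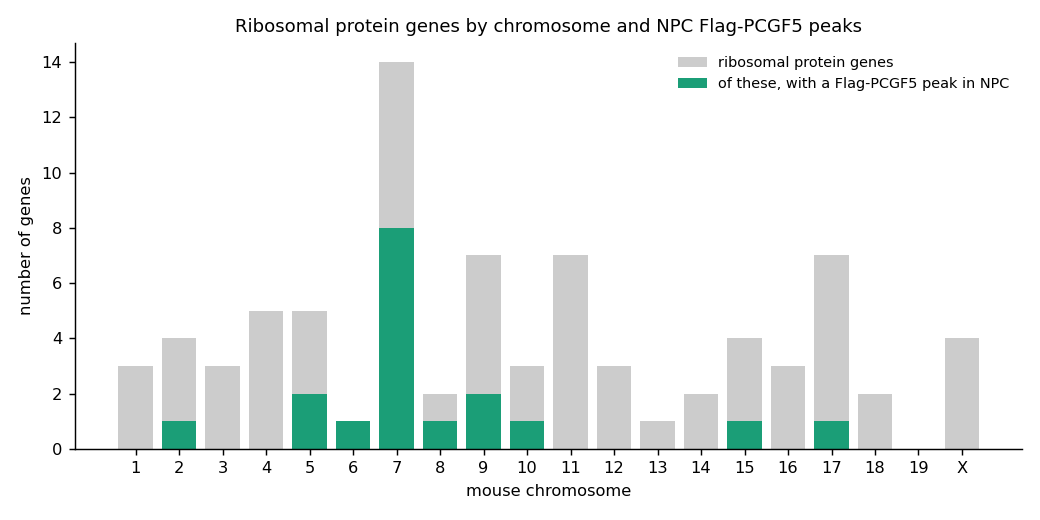
Number of ribosomal protein genes on each mouse chromosome (grey bars) and number with a Flag-PCGF5 peak in NPC (green bars). Chromosome 7 holds 14 of the 80 genes and 8 of the 18 with a peak.

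Many ribosomal protein genes carry small nucleolar RNA genes, which guide modification of ribosomal RNA, in their introns. Of 30 members that host one, 10 had a Flag-PCGF5 peak in NPC (33.3%, interval 19.2 to 51.2%). Of 50 members that host none, 8 had one (16.0%, interval 8.34 to 28.5%), and these intervals overlap.

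Over all 10 lists, 55 of the 80 ribosomal protein genes had no promoter peak, and 25 had at least 1 (31.2%, interval 22.2 to 42.1%), against 33.8% of all genes and 43.9% of CpG-rich genes.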

How the data were processed

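Libraries were grouped by the cell type, antibody and genotype in the labels. The authors used Trimmomatic for trimming, Bowtie2 for alignment to mm9 and Picard to drop duplicates. Peaks were then called by MACS2 2.1.0, library by library. Histone chromatin was digested with MNase, and Flag chromatin was cross-linked with EGS and formaldehyde and sonicated. Each peak of the deposited lists carries a fold enrichment ratio over local background, −log10 p and q values, and a score that is 10 times the −log10 p (histone) or −log10 q (Flag), rounded down. The last column of the histone lists, deposited by the authors as the summit offset, was not used. Per the labels and lists no read count or spike-in scaling is given.

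Members and all gene lists were chosen with earlier results of these data known. Starts, exons and gene names came from the GENCODE M1 annotation, and sequences from the matching NCBIM37 (mm9) genome. All 22 contigs of the lists were found in that genome, and no peak lay past a contig's end. Shares were computed in Python 3.11.15 with numpy 2.4.6 and pysam 0.24.0, and bedtools 2.31.1 gave the same marked genes in all 10 lists. The counting was tested on simulated peaks, in which 200 of 200 planted genes were found. By rule, the text names members with a peak in a histone list or in the ES Flag-PCGF5 list, the 10 with the highest fold in the NPC Flag-PCGF5 list, those in a window of 5 Mb with at least 5 peaks of fold 8 or more, those with a peak elsewhere over the gene and those nearest the limit. Other genes and members were named after their values were seen. The alternatives were the window, the rule for distance, the score limit, the starts used and, added after seeing the data, the nearest start, the gene span, exonic peaks and chromosome 7.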

Additional observations from a re-analysis of the deposited data

How the results depend on the processing

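Of 106 alternative values for the 10 lists, 99 moved by less than the counting interval. These include values that could not move, as described below for the wild type histone lists. With a window of 1000 bp, H2AK119ub1 at ribosomal protein genes went from 6.25% to 1.25% in shPCGF5 ES, where 3.51% of all genes were marked, and from 1.25% to 0% in shPCGF5 NPC, against 3.00%. Leaving out peaks with at least 90% of their bases in exons (an alternative added after seeing the data) also gave 1.25% for H2AK119ub1 in shPCGF5 ES, against 5.16% of all genes. With the higher-scoring 50% of each list, H2AK119ub1 in shPCGF5 NPC was 0% and Flag-PCGF5 in NPC was 10.0%, against 6.78% of all genes. Counting a peak only for the gene of the nearest start gave 0% for H3K27me3 in shPCGF5 NPC. With the 653 highest-scoring peaks of the NPC list, Flag-PCGF5 was 0%, against 0.724% of all genes, which reversed the order of the 2 shares. The interval of 0 of 80, from 0 to 4.58%, holds 0.724%, so this order carries no weight. Without chromosome 7, Flag-PCGF5 in NPC was 15.2%, against 13.3%. In the 4 wild type histone lists, all 40 alternatives that used starts gave 0 members. Nearly all of them only took away peaks, starts or members, so 0 was bound to follow from the main count. The exception counted any base of a peak in the window, which could have added members and gave 0 in each list. Another alternative, added after seeing the data, counted peaks anywhere from 2500 bp before to 2500 bp after a gene. It gave 2.5% for H3K27me3 in wild type ES and in wild type NPC, against 17.7% and 18.5% of all genes. No paired analysis was possible because each group had 1 library. For the same reason no library could be left out. Depth was unknown, so a member without a peak may hold signal below the caller's limit.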

Other observations

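Among all genes with an H2AK119ub1 peak in shPCGF5 ES and none in wild type ES, the highest fold enrichments were 21.4 at Reg3b, 15.3 at Zg16 and 12.4 at Reg3g, genes of secreted lectins known from the gut, with 93.7%, 98.5% and 82.4% of the bases in exons. Eef1a1, which delivers aminoacyl-tRNA to the ribosome, had 6.39, centred 1779 bp downstream of its start and wholly in an exon. Ubb, a polyubiquitin gene, had 7.65. Other high peaks of this kind had no exonic base, such as those at Zc3h10 (11.2) and Reps2 (7.97). For H3K27me3 the highest value among genes with a peak in shPCGF5 ES and none in wild type ES was 16.6 at Id3, an inhibitor of basic helix-loop-helix factors. That peak was wholly exonic, whereas the one at Tgm5 (8.88) had no exonic base. Replication-dependent histone genes, whose mRNAs have no introns, had an H3K27me3 peak at 2 of 67 in wild type ES, against 13.4% of all genes. In shPCGF5 ES they had one at 10 of 67 (14.9%, interval 8.31 to 25.3%), against 12.9%. These genes lie in clusters, and a single peak counted for Hist1h4n, Hist1h2br and Hist1h2ap. Another counted for Hist1h4m, Hist1h2bq and Hist1h2ao. The interval treats the genes as independent, so it is too narrow here. In NPC the counts were 0 in wild type and 2 in shPCGF5. These genes were chosen after their values were seen. Mitochondrial DNA held 6 H2AK119ub1 peaks in shPCGF5 ES and 0 in wild type ES, and 9 H3K27me3 peaks in wild type NPC and 1 in shPCGF5 NPC.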
